A study of Homo sapiens with 54 samples.

Results

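The data described here are 6 RNA-seq libraries of HCT-116, an established human colorectal cancer cell line: 3 from cells given 10 µM uracil and 3 from cells given 10 µM 5-fluorouracil (5-FU), each for 24 h. They were chosen by their labels alone, as the sensitive HCT-116 samples of these 2 treatments, and are 6 of the 54 libraries of the series. The series also covers DLD-1 and HT-29, other colorectal cancer lines, resistant forms of the 3 lines that had been selected in rising 5-FU, and cells irradiated after 5-FU. Sensitive cells had no earlier selection in the drug, and uracil, the natural base, is the control for all of them. Each condition stands for 1 cell line in 3 samples, which the study's methods call biological triplicates without saying that they were separate passages, so p-values measure the spread between these samples. RNA was enriched for polyadenylated transcripts, and reads were assigned to transcripts by the authors. The 6 libraries held 50940525 to 78905042 estimated counts, the deepest being 5-FU replicate 2, and no replicate pair was close enough to be counted as 1 sample.

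5-FU is a pyrimidine analogue. Cells convert it to a nucleotide that blocks thymidylate synthase, the enzyme that makes the thymine nucleotide of DNA, and to triphosphates that enter RNA and DNA. When DNA or nucleolar stress stabilises the transcription factor p53, it switches on genes such as CDKN1A, whose product p21 blocks cyclin-dependent kinases, and the DREAM complex of retinoblastoma-like proteins and E2F4 then holds cell cycle genes down through E2F sites and through the cell cycle genes homology region (CHR).

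Of 22975 genes with enough counts to test, 1100 were higher (4.79% of the genes tested) and 771 were lower (3.36%) under 5-FU than under uracil. Together they made 8.14% of the genes tested. A change was called where edgeR's quasi-likelihood test gave an adjusted p (Benjamini-Hochberg) no higher than 0.01 and the fitted level at least doubled or halved, a log2 fold change beyond 1 or -1. The 2 directions differed in abundance. Only 288 of the 1100 higher genes reached a mean of 5 TPM (a transcript level corrected for length and depth) in either group, against 432 of the 771 lower genes. In 1815 of the 1871 changed genes the 3 values of one group lay wholly above those of the other. The 2 thresholds themselves select for such separation, and the share over all genes tested is not given here, so this is no separate result. The median log2 fold change over all genes tested was 0.03, a value that TMM scaling centres near 0, and at the adjusted p alone 42% of genes differed.

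**Figure D1:**
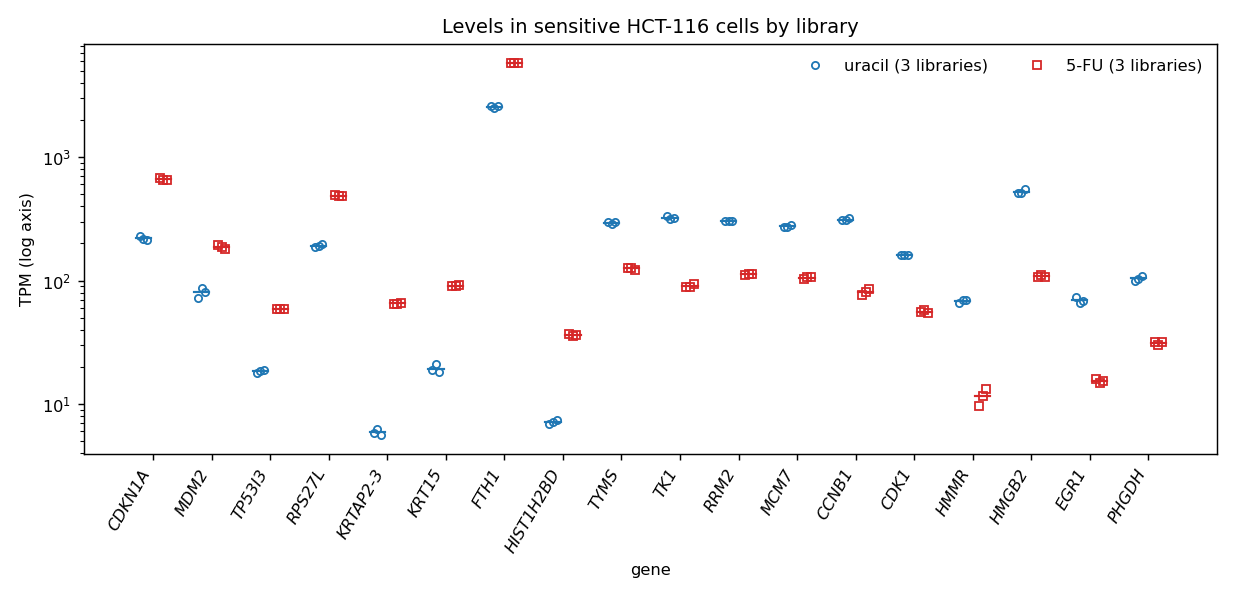
TPM on a log axis for 18 genes in the 6 libraries of sensitive HCT-116 cells, with open circles for uracil, open squares for 5-FU and a bar at each group mean. In each of the 18 genes the 3 values of one group lie apart from the 3 of the other, from KRTAP2-3, which was at 5.90 TPM under uracil and 65.3 TPM under 5-FU, to HMMR, at 68.7 and 11.6 TPM. The 18 were picked for display and all were called as changed. Those thresholds select for such separation, so it is no separate result.

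Among genes of at least 5 TPM whose groups did not overlap, the largest rise was that of KRTAP2-3, which codes for a hair keratin-associated protein and spans chr17:41059240-41060114 (GRCh38, GENCODE annotation). Its level was 5.82, 6.29 and 5.59 TPM under uracil and 64.9, 64.7 and 66.4 TPM under 5-FU. All 3 treated libraries were more than 10 times above the highest control, and the log2 fold change 3.46 (SE 0.07) had an adjusted p of 1.78e-19 (edgeR). CPA4, a carboxypeptidase gene at chr7:130293134-130324180, followed among genes with a known product, with 6.47, 4.17 and 5.16 TPM under uracil and 49.7, 47.4 and 50.7 TPM under 5-FU (log2 fold change 3.17, SE 0.17). Also among the 10 largest rises were the stratified-epithelium keratins KRT15 and KRT13, MSH4, a meiotic homologue of mismatch repair proteins (0.816 to 5.05 TPM), and GRIN2C, a glutamate receptor subunit (2.02 to 12.2 TPM). The other 4 were the immunoglobulin kappa orphon IGKV1OR-2, the read-through locus STX16-NPEPL1, the microRNA hairpin locus MIR196A1 and AC067930.4. Reads of the first 3 can also come from overlapping or near-identical genes, so their values are uncertain.

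The 10 largest falls were of another kind. HMMR, the hyaluronan-mediated motility receptor that binds spindle microtubules, had 66.2, 70.0 and 70.0 TPM under uracil and 9.69, 11.7 and 13.3 TPM under 5-FU. All 3 treated libraries were far below the controls, and the log2 fold change -2.63 (SE 0.06) had an adjusted p of 1.21e-18 (edgeR). CDC25C, CCNB2 and KIF20A, which drive entry into mitosis and cytokinesis, were in the same group of 10, as were HMGB2, a chromatin protein that is abundant in dividing cells (525 ± 26.5 to 109 ± 2.29 TPM, SD, n = 3), and ASF1B, a histone chaperone of replicating chromatin (77.03 ± 4.78 to 16.1 ± 0.185 TPM, SD, n = 3). RDM1, TMSB15A and the non-coding gene AL139260.3 were also among them.

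The genes that act in G2 and mitosis fell almost without exception. Of the 77 members of a list of such genes, all 77 were tested and 73 were lower, against 3.36% of all genes tested, with none higher. The median log2 fold change of the list was -1.72, and its members ranged from -2.63 to -0.58. Summed over the list, the level was 6454, 6464 and 6550.3 TPM under uracil and 2204, 2196 and 2159.9 TPM under 5-FU, so both groups were narrow and lay far apart. In cultures measured in bulk, fewer cells in G2 or mitosis and less of these RNAs per cell cannot be told apart.

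Many promoters of these genes hold the letters of the CHR. RefSeq promoter windows of GRCh38.p14, from 250 bases before the annotated start to 50 after it, were available for 64 of the 77 genes, and 43 of these (67.2%) held TTTGAA or its reverse complement TTCAAA in at least 1 window. Over all genes with a window the share was 18.2%, and counted by window rather than by gene the shares were 59.7% and 15.2%. The 4 lowered members below are shown because they had the largest falls among those whose CHR lies before the start: HMMR at chr5:163460512-163460631 (+ strand), CDC25C at chr5:138331805-138331924 (- strand), CCNB2 at chr15:59105026-59105145 (+ strand) and DLGAP5 at chr14:55191586-55191705 (- strand). Each line gives the 120 bases before the start, 5′ to 3′ on the strand of the gene, and capitals mark the CHR letters and the CCAAT box (CCAAT or ATTGG), which factors of the NF-Y family bind:
HMMR: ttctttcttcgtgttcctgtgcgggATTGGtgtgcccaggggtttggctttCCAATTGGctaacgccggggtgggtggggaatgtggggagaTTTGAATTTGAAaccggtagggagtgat
CDC25C: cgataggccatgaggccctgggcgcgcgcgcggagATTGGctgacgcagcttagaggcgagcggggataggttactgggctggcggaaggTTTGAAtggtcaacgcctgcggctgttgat
CCNB2: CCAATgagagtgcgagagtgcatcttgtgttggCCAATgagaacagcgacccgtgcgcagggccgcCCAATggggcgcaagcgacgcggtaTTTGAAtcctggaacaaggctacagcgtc
DLGAP5: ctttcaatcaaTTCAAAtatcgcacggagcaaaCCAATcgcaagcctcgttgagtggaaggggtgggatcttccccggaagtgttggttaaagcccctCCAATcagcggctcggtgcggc

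In HMMR, CDC25C and CCNB2 the CHR begins 22 to 30 bases before the start, counting the nearer of the tandem pair in HMMR, with CCAAT boxes further out. In DLGAP5 the match shown begins 109 bases before the start, and its window holds others outside the printed bases, further before the start and just after it. CDC25C too has a further match after a start. A CCAAT box stood in the windows of 73.4% of the matched G2/M genes and 39.7% of all genes, and both motifs together in 53.1% and 7.26%. Among the other gene lists the CCAAT share ran from 21.4% (keratins and cornified envelope) to 76.9% (cholesterol and fatty acid synthesis). The CHR letters stood in 20.6% of matched lowered genes outside the G2/M list and 14.1% of matched genes tested. HMMR holds CCAATTGG, in which the 2 orientations of the box overlap. Matches to these letters are descriptions of the windows and are not shown to be bound.

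**Figure D2:**
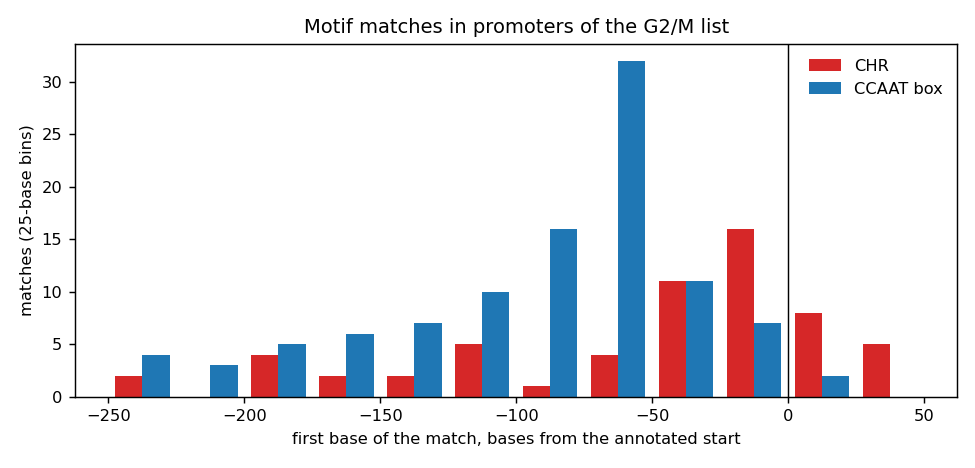
Number of CHR and CCAAT box matches in 25-base bins along the RefSeq promoter windows of the G2/M list, by the distance of the first base of a match from the annotated start. Of 60 CHR matches, 27 begin in the last 50 bases before the start.

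By role, the falls were even. All 11 genes of chromosome condensation and separation and all 17 of cytokinesis and the chromosomal passenger complex fell, as did 11 of 12 genes of mitotic entry, 18 of 19 of the spindle and its motors, and 16 of 18 of the kinetochore and spindle checkpoint. CCNB1, the B-type cyclin that activates CDK1 at mitotic entry (chr5:69167135-69178245), had 307, 308 and 321 TPM under uracil and 76.5, 80.3 and 86.0 TPM under 5-FU. The groups were far from overlapping, with a log2 fold change -2.002 (SE 0.06) and an adjusted p of 1.2e-17 (edgeR). CDK1 itself had 161, 162 and 161 TPM under uracil and 55.2, 57.8 and 54.9 TPM under 5-FU (log2 fold change -1.56, SE 0.06). PLK1, the kinase that triggers centrosome maturation and exit from G2, went from 122 ± 3.37 to 30.4 ± 0.831 TPM (SD, n = 3; log2 fold change -2.05, SE 0.06).

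The other members with large falls were NUF2 (-2.27) and SPC25 (-2.13) of the NDC80 kinetochore complex, BUB1 (-2.06), a kinase of the spindle checkpoint, NEK2 (-2.17), a centrosomal kinase, the motors KIFC1 (-2.14), KIF14 (-2.14) and KIF20A (-2.29), the spindle protein DLGAP5 (-2.24) and the mitotic kinase PBK (-2.20), all as log2 fold changes. FOXM1 and MYBL2, transcription factors that switch this programme on, were at 62.5 and 79.5 TPM under uracil and 17.8 and 25.4 TPM under 5-FU. The 4 members that did not pass the fold threshold were KIF18A (-0.99), KNSTRN (-0.97), BUB3 (-0.60) and CDC25B (-0.58). All 4 were below their controls at the adjusted p alone, the last 2 with levels of 284, 282 and 299 TPM under uracil and 194, 177 and 179 TPM under 5-FU for BUB3, and 136 ± 1.10 and 104 ± 2.62 TPM (SD, n = 3) for CDC25B. FOXM1, MYBL2, KIF18A and KNSTRN were picked for mention after their values were seen.

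**Figure D3:**
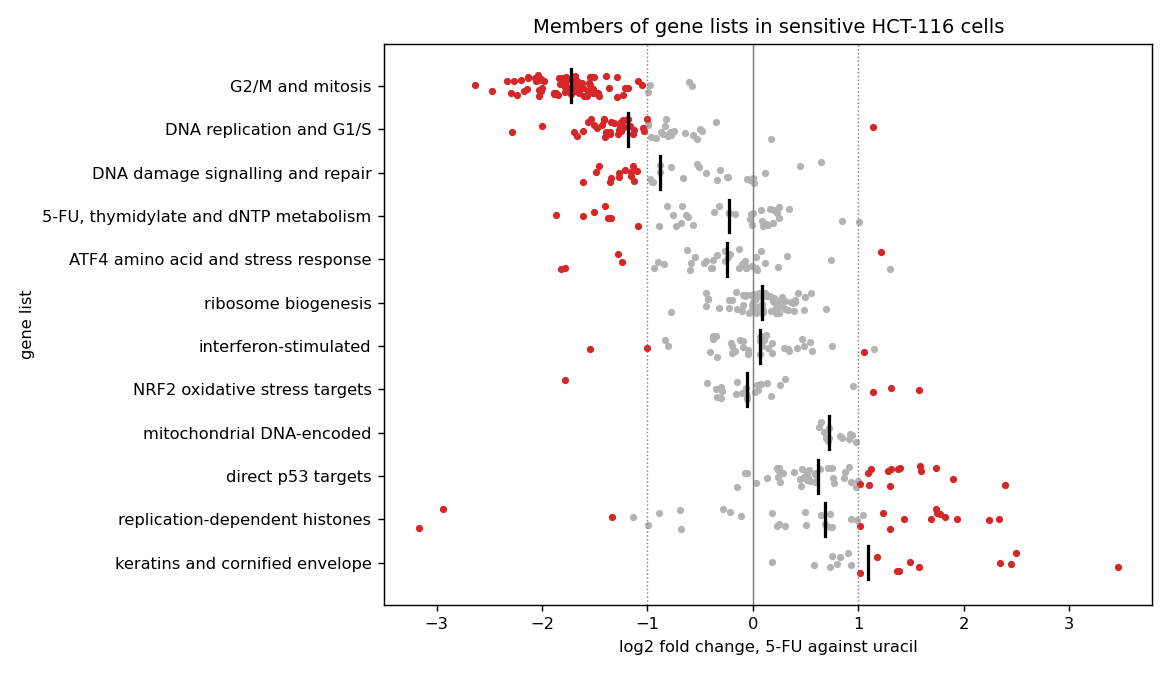
Log2 fold change of 5-FU against uracil in sensitive HCT-116 cells for the tested members of 12 gene lists, with red points for genes past both thresholds, grey points for the rest, a black bar at each list's median and dotted lines at the fold threshold. The 3 cell cycle and repair lists lie to the left, with medians of -1.72, -1.19 and -0.88. The keratin, mitochondrial DNA, histone and p53 lists lie to the right, with medians of 1.10, 0.72, 0.68 and 0.62.

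Genes that copy DNA fell too, with a smaller median. Of 55 tested members of the DNA replication and G1/S list, 34 fell and 1 rose, where 3.36% of all genes tested fell and 4.79% rose. The list's median log2 fold change was -1.19. The origin licensing and helicase genes supplied 14 of 17, polymerases and fork proteins 15 of 22, and histone chaperones and other chromatin proteins at the fork 3 of 5. MCM7, a subunit of the replicative helicase at chr7:100092233-100101940, had 273, 273 and 281 TPM under uracil and 104, 106 and 106 TPM under 5-FU. Its treated values stood well under the controls (log2 fold change -1.69, SE 0.04; adjusted p = 5.72e-19, edgeR). MCM5 of the same helicase (-1.66), the DNA polymerase alpha subunit POLA2 (-2.002), its primase PRIM1 (-1.56) and the GINS subunit GINS2 (-1.61) fell with it. MCM3 went from 172 ± 0.951 to 88.4 ± 1.96 TPM (SD, n = 3), just short of the fold threshold at -0.996, and PCNA, the sliding clamp, from 401 ± 11.2 to 213 ± 2.26 TPM (SD, n = 3; log2 fold change -0.92).

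In the G1/S control genes the picture was mixed. E2F1, the activating E2F factor, had 23.9, 23.9 and 24.4 TPM under uracil and 11.5, 10.2 and 10.9 TPM under 5-FU, and fell (log2 fold change -1.16, SE 0.06). CCND1, cyclin D1, was the 1 member that rose, from 216, 216 and 204 TPM to 486, 474 and 457 TPM, with no overlap (log2 fold change 1.14, SE 0.05). CCNE1 and CCNE2, the E-type cyclins, did not pass the threshold, at log2 fold changes of 0.17 and -0.35, and the cyclins D and E were named after their values were seen. In the promoters of this list the CHR letters stood in 2.22% of 45 matched genes, and an E2F core (TTTCGCG or TTTGGCG on either strand) in 46.7%, against 3.85% of all genes and 9.38% of the matched G2/M genes.

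The DNA repair genes that fell were mostly those of homologous recombination and the Fanconi anaemia pathway, which repair broken and stalled forks. There 12 of 19 members fell, while 1 of 10 damage signalling genes and 0 of 5 end-joining genes did, and none rose. Of all genes tested, 3.36% fell. FANCI, which forms the central complex of the Fanconi pathway with FANCD2, had 79.1, 83.0 and 81.5 TPM under uracil and 30.8, 30.9 and 29.7 TPM under 5-FU, without overlap (log2 fold change -1.46, SE 0.04). FANCD2 fell with a log2 fold change of -1.34, and the helicases BLM (-1.61) and BRIP1 (-1.36) fell too. XRCC6 and XRCC5, the Ku subunits of end joining, stayed within the fold threshold, with means of 659.8 and 374 TPM under uracil and 488 and 304 TPM under 5-FU.

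The target of the drug was itself lower at the RNA level. TYMS, thymidylate synthase (chr18:657653-673578), had 298, 287 and 296 TPM under uracil and 126, 127 and 123 TPM under 5-FU. The highest treated library was well below the lowest control (log2 fold change -1.34, SE 0.04; adjusted p = 1.1e-16, edgeR). With it, TK1, RRM1, RRM2, GGH and DUT, genes of 5-FU action, thymidylate synthesis and deoxynucleotide supply fell. In all, 7 of 39 tested genes of that list fell and none rose, where 3.36% of all genes tested fell and 4.79% rose. The list's median log2 fold change was -0.22. TK1, the thymidine kinase of the salvage route, had 333, 313 and 323 TPM under uracil and 88.4, 88.3 and 93.3 TPM under 5-FU (log2 fold change -1.87, SE 0.05). RRM1 and RRM2, the subunits of the ribonucleotide reductase of S phase, went from 122 ± 4.69 to 38.6 ± 1.26 TPM and from 303 ± 1.53 to 113 ± 1.43 TPM (SD, n = 3). RRM2B, the alternative small subunit that p53 induces, was at 44.3 ± 2.39 and 60.1 ± 1.72 TPM (SD, n = 3), a log2 fold change of 0.45 that did not reach the fold threshold.

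GGH, an enzyme that trims folate tails, fell from 96.4 ± 3.01 to 37.1 ± 0.958 TPM (SD, n = 3). DUT, which destroys dUTP before it can enter DNA, fell with a log2 fold change of -1.09. Most genes that take up or activate 5-FU did not pass. UMPS, which converts 5-FU to its monophosphate, had 45.6, 47.9 and 54.2 TPM under uracil and 44.2, 41.4 and 45.3 TPM under 5-FU, with a log2 fold change of -0.01 (SE 0.05), a sign that flipped to 0.08 with library-size scaling. TYMP, thymidine phosphorylase, was at 21.1 and 40.3 TPM (log2 fold change 0.85, SE 0.05, named after its value was seen). DPYD, the enzyme that degrades 5-FU, was near the lower limit of what was measured well, at 1.14, 0.977 and 1.17 TPM under uracil and 0.564, 0.613 and 0.828 TPM under 5-FU (log2 fold change -0.68, SE 0.15).

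Targets of p53 moved the other way. Of 50 tested members of a list of 51 direct targets, 14 rose, against 4.79% of all genes tested, and none fell. At the adjusted p alone 43 of 50 were higher and none lower, where 17.6% of all genes tested were higher, and the list's median log2 fold change was 0.62. Most members therefore lay between no change and a doubling.

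CDKN1A, which codes for p21 (chr6:36676460-36687337), had 229, 216 and 215 TPM under uracil and 676, 658 and 657 TPM under 5-FU. The treated libraries were about 3 times the controls with almost no spread (log2 fold change 1.60, SE 0.06; adjusted p = 1.82e-15, edgeR). MDM2, the ubiquitin ligase that p53 induces against itself (chr12:68808177-68845544), had 72.6, 87.6 and 80.6 TPM under uracil and 193, 188 and 179 TPM under 5-FU (log2 fold change 1.30, SE 0.05). Among feedback genes it was the only one of 4 to rise. TP53I3, a quinone oxidoreductase-like gene that is a sensitive p53 reporter (chr2:24077433-24085861), went from 17.9, 18.5 and 18.9 TPM to 58.8, 58.4 and 58.6 TPM, with the largest change of any well-expressed target (log2 fold change 1.90, SE 0.05; adjusted p = 1.39e-17, edgeR).

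Other targets that rose and were well expressed were RPS27L, a ribosomal protein paralogue (192 ± 4.52 to 485 ± 4.43 TPM, SD, n = 3), PLK2, a kinase of the stress response (20.5 ± 0.407 to 58.5 ± 2.65 TPM), ZMAT3, an RNA-binding protein (11.1 ± 0.613 to 28.0 ± 1.18 TPM), TP53INP1 (10.5 ± 0.825 to 25.7 ± 1.30 TPM) and SERPINB5, maspin (26.0 ± 1.22 to 57.9 ± 2.31 TPM). ABCA12, TRIM22, EDA2R and TNFRSF10C also rose but from under 2 TPM, and EDA2R, at 0.00866, 0.0625 and 0.0611 TPM under uracil and 0.138, 0.179 and 0.0688 TPM under 5-FU, was called with an adjusted p of only 0.00896 (edgeR). Its call was lost in DESeq2, in counts rebuilt from TPM, with a replicate block and without any of 5 of the 6 libraries, and that of TNFRSF10C without 5-FU replicate 2. FAS (14.7 to 28.8 TPM) and TNFRSF10D (38.3 to 82.4 TPM), which code for a death receptor and a decoy receptor, made up the 14. By role, 6 of 15 apoptosis genes, 5 of 17 of metabolism, autophagy and other roles and 2 of 10 of arrest and growth control rose, and 0 of 4 of DNA repair and nucleotide supply.

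Other targets stayed within the thresholds. GDF15, a secreted stress cytokine, and SFN, 14-3-3 sigma, were the most abundant of them, at 506 and 136 TPM under uracil and 769 and 252 TPM under 5-FU, with log2 fold changes of 0.59 and 0.88. BAX, the pore-forming protein of mitochondrial death, had a log2 fold change of 0.71, and BBC3, which codes for PUMA, one of 0.48. DDB2 (-0.07), XPC (-0.06) and GADD45A (0.14), genes of DNA damage recognition and repair, were close to 0. BTG2, an antiproliferative gene, lay at 20.5 ± 0.965 and 40.8 ± 0.304 TPM (SD, n = 3), a shade under the fold threshold. BAX, BBC3, DDB2, XPC, GADD45A and BTG2 were picked for mention after their values were seen.

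**Figure D4:**
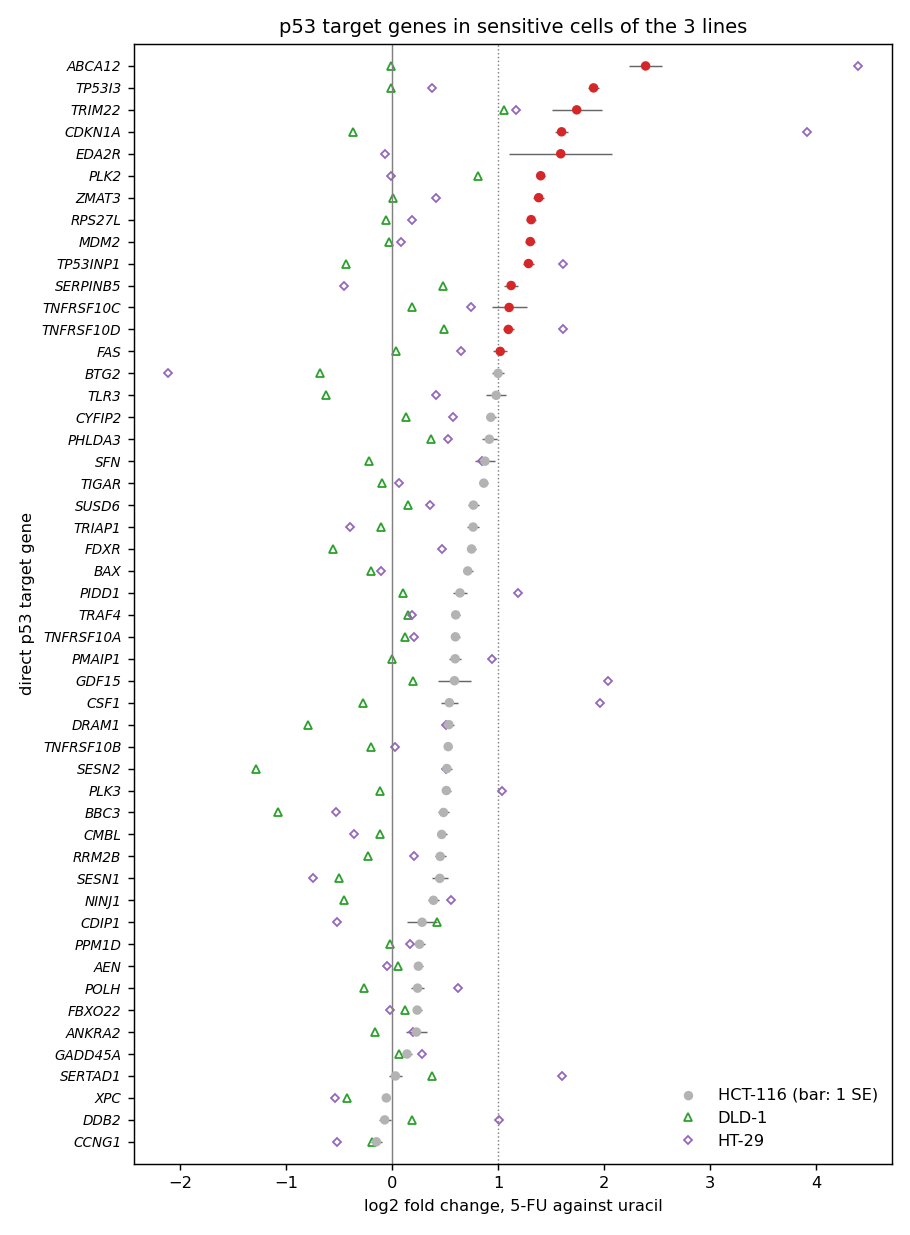
Log2 fold change of 5-FU against uracil for 50 direct p53 target genes, with filled circles for sensitive HCT-116 (red where past both thresholds, grey otherwise, bars of 1 SE), triangles for sensitive DLD-1 and diamonds for sensitive HT-29, and a dotted line at the fold threshold. Most circles lie to the right of the triangles, while in CDKN1A the HT-29 value of 3.92 exceeds the HCT-116 value of 1.60.

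Genes of the cell death machinery were called about as often as all genes tested (8.14%), with 1 rise and 1 fall among 26 tested. BIK, a pro-death BH3 protein, rose from 20.2, 18.6 and 18.7 TPM to 42.5, 40.6 and 39.5 TPM (log2 fold change 1.08, SE 0.06), and BMF, another BH3 protein, fell from 1.498 ± 0.228 to 0.553 ± 0.0564 TPM (SD, n = 3; log2 fold change -1.54, SE 0.24). None of the 6 caspases changed. BCL2L1, which codes for the survival protein BCL-XL, was at 117 and 167 TPM with a log2 fold change of 0.54.

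Histone transcripts gave a pattern opposite to that of the other S-phase genes. Replication-dependent histone mRNAs normally end in a stem-loop without a poly(A) tail, so a poly(A) library reports mainly the polyadenylated forms that some of these genes also make. Of 37 tested of 89 in the table, 12 rose and 3 fell, against 4.79% and 3.36% of all genes tested. HIST1H2BD, an H2B gene, had 6.90, 7.20 and 7.43 TPM under uracil and 36.6, 35.9 and 36.2 TPM under 5-FU (log2 fold change 2.33, SE 0.09; adjusted p = 4.7e-15, edgeR). HIST1H2BK and HIST1H1C, singled out after their values were seen because they were the most abundant, had 19.8, 20.8 and 19.6 TPM and 22.1, 22.5 and 20.8 TPM under uracil. Under 5-FU they had 67.8, 68.1 and 68.4 TPM and 44.2, 45.0 and 44.1 TPM, log2 fold changes of 1.74 and 1.02. The rises of HIST2H2BE, HIST1H3H and HIST1H2AI and the falls of HIST1H2AJ and HIST1H2BO were among genes under 3 TPM, with SEs up to 0.92. The calls of HIST1H2AI and HIST1H2AJ were each lost without any of 3 of the 6 libraries, and that of HIST1H2BO without any of 4. Summed over the list the level was 112, 109 and 108 TPM under uracil and 234, 237 and 232 TPM under 5-FU. SLBP, the protein that binds the histone stem-loop, was at 123 and 80.1 TPM (log2 fold change -0.64).

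Of 18 tested members of the keratin and cornified envelope list, 10 rose, against 4.79% of all genes tested, and none fell, with a median log2 fold change of 1.10. Those that rose were mainly keratins of stratified epithelium and hair. The list rose in the other sensitive lines too, with 7 of 17 tested members in DLD-1 (median 0.82) and 16 of 21 in HT-29 (median 2.80). Of all genes tested in those lines, 2.66% and 8.86% rose. Levels differed between lines, and KRT13 was at 76.5 TPM in uracil-treated HT-29. KRT15, a basal-layer keratin, had 18.9, 21.0 and 18.1 TPM under uracil and 90.2, 91.2 and 92.2 TPM under 5-FU (log2 fold change 2.49, SE 0.05; adjusted p = 1.68e-19, edgeR). KRT7 (4.34 to 9.44 TPM), a simple keratin, KRTAP3-1 (2.65 to 6.99 TPM), KRT13 (1.29 to 5.37 TPM), KRT80 (2.11 to 6.004 TPM) and KRT81 (0.826 to 2.52 TPM) rose from lower levels, as did KRTAP2-4, a near copy of KRTAP2-3 that stayed under 2 TPM and whose call was lost without any of 4 of the 6 libraries. The abundant simple keratins KRT8 and KRT19, which mark colonic epithelium, had means of 1044 and 841 TPM under uracil and 1863 and 1489.5 TPM under 5-FU. Their log2 fold changes of 0.83 and 0.80 fell short of the fold threshold.

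The protein genes of mitochondrial DNA all lay above their controls, though none passed the fold threshold. All 13 of 13 were higher at the adjusted p alone, with log2 fold changes of 0.62 to 0.98. Their summed level was 65154, 87493 and 66602 TPM under uracil and 125810, 127298 and 123630 TPM under 5-FU. Uracil replicate 2 was higher than the other controls and still below all 3 treated libraries. MT-CO3, a subunit of cytochrome oxidase, went from 8327 ± 1569 to 15019.5 ± 418 TPM (SD, n = 3).

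FTH1, the ferritin heavy chain that stores iron, was among the most abundant genes to rise, from 2597, 2487 and 2602 TPM to 5801, 5758 and 5819 TPM (log2 fold change 1.14, SE 0.04; adjusted p = 1.71e-15, edgeR). Its partner FTL, the light chain, was at 2356 ± 103 and 1923 ± 23.1 TPM (SD, n = 3), with a log2 fold change of -0.30. FTH1 has processed pseudogene copies, so its value rests on how reads were divided. In the list of NRF2 targets that holds both, 3 of 26 rose and 1 fell, where 8.14% of all genes tested changed. The list's median was -0.06. The other rises were of ABCC3, an efflux transporter of organic anions (44.8 ± 6.82 to 125 ± 7.84 TPM, SD, n = 3), and AKR1B10, an aldo-keto reductase near 1 TPM. PIR, an iron-binding nuclear protein, fell from 34.7, 35.3 and 38.5 TPM to 10.7, 10.4 and 10.5 TPM (log2 fold change -1.78, SE 0.06). TXN, thioredoxin, had groups that overlapped, at 779.7 and 805 TPM.

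The amino acid stress genes driven by ATF4 were lower only in part. Of 38 tested, 4 fell and 1 rose, with a median of -0.25, where 8.14% of all genes tested changed. PHGDH, the first enzyme of serine synthesis, had 99.9, 103 and 109 TPM under uracil and 31.5, 30.4 and 31.6 TPM under 5-FU (log2 fold change -1.78, SE 0.06). ASNS, asparagine synthetase, had 127, 122 and 130.4 TPM under uracil and 59.4, 62.8 and 62.3 TPM under 5-FU (log2 fold change -1.28, SE 0.06). PCK2, the mitochondrial PEP carboxykinase (-1.81), and SLC1A4, a serine and alanine transporter (-1.24), were the other 2, and NUPR1, a stress-induced chromatin protein near 1 TPM, rose (1.22). ATF4 itself went from 325 ± 14.5 to 222 ± 3.90 TPM (SD, n = 3), a log2 fold change of -0.55, and DDIT4 from 389.9 ± 19.8 to 303 ± 1.30 TPM, one of -0.40.

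In the list of EGFR ligands and MAPK feedback, 3 of 23 genes fell and none rose, where 3.36% of all genes tested fell and 4.79% rose. EGR1, a zinc finger factor induced within minutes of MAPK signalling, had 73.0, 65.7 and 68.8 TPM under uracil and 16.1, 14.9 and 15.5 TPM under 5-FU (log2 fold change -2.17, SE 0.22). FOS went from 7.04 ± 0.614 to 1.90 ± 0.0657 TPM and SPRY4, a feedback inhibitor of the same pathway, from 67.1 ± 0.818 to 29.8 ± 0.717 TPM (SD, n = 3). EGR1 and FOS were 2 of 9 early and late response factors of that list, and the others were not called. MYC, by contrast, was at 264, 255 and 261 TPM under uracil and 381, 371 and 368 TPM under 5-FU, a log2 fold change of 0.50 (SE 0.06) that is past the adjusted p and short of the fold threshold.

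Of 34 genes of cholesterol and fatty acid synthesis, 3 fell and none rose, where 3.36% of all genes tested fell and 4.79% rose. At the adjusted p alone 21 were lower and 2 higher, where 24.4% and 17.6% of all genes tested were. The list's median log2 fold change was -0.40. Among the 3 that fell were INSIG1, which holds back the sterol-sensing factor SREBP (25.6 ± 1.63 to 7.44 ± 0.326 TPM, SD, n = 3), and ACAT2 (-1.22). NOTUM, which inactivates WNT ligands (-1.24), and TNFRSF19 (-1.81) were the 2 of 16 WNT target and stem genes to fall, and none rose. Of all genes tested, 3.36% fell and 4.79% rose. Among hypoxia-induced genes EGLN3 fell (-1.01), 1 of 17, by so little past the fold threshold that the call was lost under counts rebuilt from TPM and in the fit of the 6 libraries alone. In the list of intestinal differentiation genes 4 of 15 rose and 2 fell, against the same 4.79% and 3.36% of all genes tested. The best expressed of these was CA2, carbonic anhydrase 2, which fell from 60.7, 58.7 and 58.2 TPM to 25.5, 26.2 and 26.5 TPM (log2 fold change -1.20, SE 0.06), and the others were under 4 TPM. The calls of CDH17, HNF4A and FCGBP in that list were lost without any of 4, 3 and 2 of the 6 libraries.

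Interferon-stimulated genes were called about as often as all genes tested (8.14%). Of 39 tested, 1 rose (XAF1, 0.896 to 1.95 TPM, a call lost without any of 3 of the 6 libraries) and 2 fell, with a median log2 fold change of 0.07. The 2 that fell were OAS3, an antiviral oligoadenylate synthetase (19.8 ± 1.35 to 8.48 ± 0.434 TPM, SD, n = 3), and IRF7 (-1.003), whose call was lost under library-size scaling and in the fit of the 6 libraries alone. IFITM3 and ISG15 were the most abundant, with log2 fold changes of 0.75 and 0.18. Of 20 NF-kB targets, ICAM1 rose, at under 1 TPM.

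The machinery that makes ribosomes, where 5-FU is known to interfere with the processing of ribosomal RNA, showed no called change. None of 62 ribosome biogenesis genes, 79 ribosomal protein genes, 20 RNA exosome genes or 15 snoRNA host genes changed. Of all genes tested 8.14% changed, and the median log2 fold changes of the 4 lists were 0.09, -0.06, -0.10 and 0.07. NCL, nucleolin, was at 1255 ± 58.4 and 1164 ± 23.3 TPM and NPM1, nucleophosmin, at 4059 ± 219 and 2974 ± 96.8 TPM (SD, n = 3). RPL22L1, a ribosomal protein paralogue, was at 819 ± 18.7 and 497 ± 6.60 TPM, a log2 fold change of -0.71. By the adjusted p alone, 25 of the 62 ribosome biogenesis genes were higher and 11 lower, where 17.6% and 24.4% of all genes tested were. The same counts were 1 and 23 of the 79 ribosomal protein genes, 4 and 9 of the 20 RNA exosome genes and 5 and 4 of the 15 snoRNA host genes. Of 66 tested snoRNA and scaRNA genes, 5 rose and none fell, where 4.79% of all genes tested rose and 3.36% fell. The 5 were SNORD1B, SNORD63, SNORA71B, SNORA79B and SNORD14E, small RNAs that a poly(A) library is not built to capture, and each of these calls was lost when at least 1 of the 6 libraries was left out. The study followed 15 of the KRAB zinc finger genes counted here by RT-qPCR, in sensitive against resistant cells. None of the 15 was called under 5-FU, where 8.14% of all genes tested were, so for so few genes the count is near that share. Their median log2 fold change was -0.03, and 5 of them reached 5 TPM in either group.

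Transcript levels, given as a description, show which RNAs carried the changes. CDKN1A-201 held most of the CDKN1A level, with 201, 188 and 189 TPM under uracil and 609, 597 and 601 TPM under 5-FU. For MDM2, 15 of 36 annotated transcripts had a group mean of at least 1 TPM. The largest, MDM2-224, went from 24.1 ± 0.625 to 56.6 ± 3.79 TPM, and MDM2-202 from 11.6 ± 0.527 to 30.4 ± 1.17 TPM (SD, n = 3). In TP53I3, TP53I3-202 went from 5.92, 5.58 and 6.11 TPM to 34.5, 33.5 and 32.0 TPM, while TP53I3-201, at a like level under uracil, reached 18.8, 15.5 and 18.2 TPM. The ratio between these transcripts thus differed between the groups, though kallisto estimates it from reads that they mostly share.

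TYMS-203 held the fall of TYMS, from 252, 261 and 267 TPM to 96.5, 98.2 and 88.5 TPM. Transcripts without a defined coding sequence gave other values. TYMS-205 was at 37.3, 15.6 and 18.7 TPM and 21.4, 22.5 and 25.7 TPM, with overlap, and the retained-intron transcript TYMS-204 at 5.70 ± 0.463 and 5.92 ± 0.781 TPM (SD, n = 3). Both protein-coding transcripts of CCNB1 with the highest levels fell in parallel, CCNB1-204 from 184 to 45.2 TPM and CCNB1-201 from 86.0 to 21.7 TPM. In CPA4 the coding transcript CPA4-201 went from 2.86, 2.87 and 2.62 TPM to 24.9, 23.5 and 24.5 TPM, and the retained-intron transcript CPA4-205 from 0.458, 0.383 and 0.816 TPM to 12.2, 10.4 and 9.22 TPM.

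The same drug dose and time gave another response in the other sensitive lines. In DLD-1, 580 of 21814 genes were higher (2.66%) and 298 lower (1.37%), 4.02% in all. In HT-29, 2105 of 23756 were higher (8.86%) and 785 lower (3.3%), 12.2% in all. The difference between responses was tested gene by gene with an interaction term in 1 edgeR fit of the 18 uracil and 5-FU libraries of the 3 sensitive lines. At an adjusted p of at most 0.01, 6855 of 24461 genes (28%) responded differently in HCT-116 and DLD-1 and 9296 (38%) in HCT-116 and HT-29. These tests share the 6 HCT-116 libraries, and DLD-1 uracil replicate 2 was far deeper than the rest, at 218518344 estimated counts.

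The fall of mitotic genes separated HCT-116 from both other lines. All 77 members of the G2/M list had a lower response in HCT-116 than in DLD-1, where 14.2% of all genes did, and all 77 than in HT-29, where 21.3% did. The list's median log2 fold change was 0.20 in DLD-1 and -0.05 in HT-29, with 0 and 4 members lower. CCNB1 had a log2 fold change of 0.20 in DLD-1 and -0.78 in HT-29, and the difference, HCT-116 minus the other line, was -2.18 (SE 0.06, adjusted p = 5.11e-18) and -1.27 (SE 0.06, adjusted p = 2.31e-14, edgeR). For HMMR, with a log2 fold change of -1.92 in HT-29, the difference from HT-29 was -0.76 (SE 0.08). DNA replication genes gave a like result, with 52 and 52 of 56 members lower in response than in DLD-1 and HT-29.

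**Figure D5:**
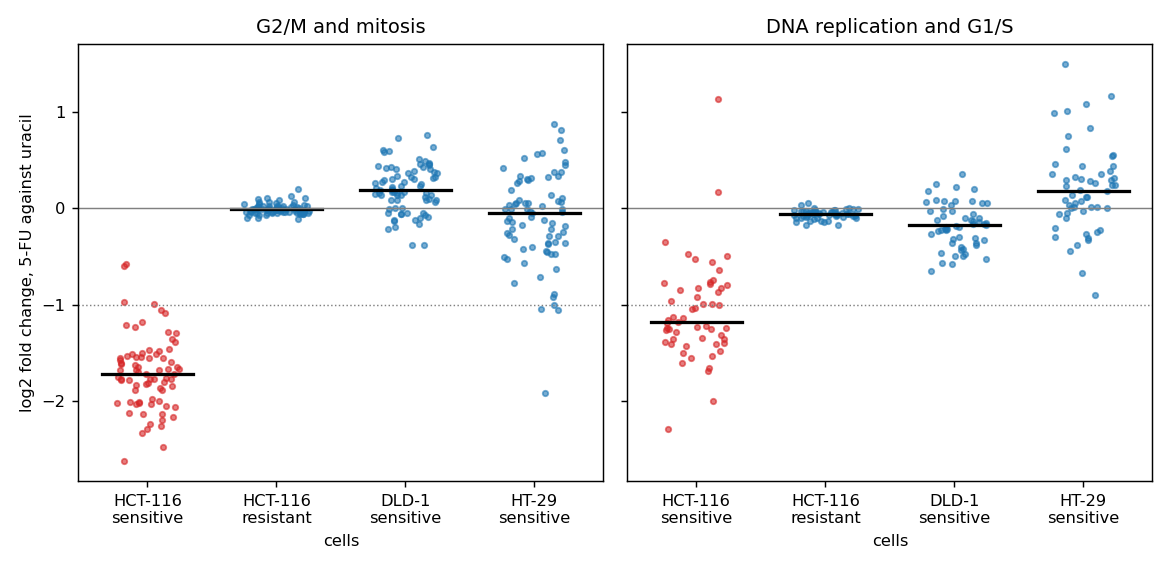
Log2 fold change of 5-FU against uracil for each tested member of the G2/M list (left) and the DNA replication and G1/S list (right) in sensitive HCT-116 (red) and in resistant HCT-116, sensitive DLD-1 and sensitive HT-29 (blue), with a bar at the median and a dotted line at the fold threshold. The HCT-116 medians are -1.72 and -1.19, and the other medians lie between -0.18 and 0.20.

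The list of 5-FU, thymidylate and deoxynucleotide metabolism was divided. Of 39 members, 17 had a lower and 13 a higher response in HCT-116 than in DLD-1, and 17 and 14 against HT-29. Of all genes, 14.2% were lower and 13.8% higher in response against DLD-1, and 21.3% and 16.7% against HT-29. TYMS had a log2 fold change of -0.08 in DLD-1 and 0.51 in HT-29, so the differences were -1.24 (SE 0.06) and -1.90 (SE 0.06), with adjusted p = 4.73e-14 and 1.09e-17 (edgeR). TK1 and RRM2 were at 0.83 and 0.92 in HT-29 on the log2 scale, against -1.87 and -1.38 in HCT-116.

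Most p53 targets had a higher response in HCT-116 than in DLD-1. Of 49 members in the joint fit, 42 had a higher response in HCT-116 than in DLD-1 and 2 a lower one, while 25 were higher and 11 lower against HT-29. For comparison, 13.8% and 16.7% of all genes were higher. On the log2 scale the value of MDM2 was -0.03 in DLD-1 and 0.09 in HT-29, against 1.30 in HCT-116, and TP53I3 had -0.02 and 0.37, against 1.90. In HT-29 itself, 11 of 50 tested members were called higher and 1 lower, where 8.86% and 3.3% of all genes tested were. The list's median log2 fold change there was 0.37. GDF15 was among the members with a lower response in HCT-116 than in HT-29, which 21.3% of all genes had. Its log2 fold change was 2.03 in HT-29 and 0.59 in HCT-116. CDKN1A too went against the order of MDM2 and TP53I3. It was at 1.88 ± 0.348 TPM in uracil-treated HT-29 and 30.9 ± 0.4395 TPM after 5-FU (SD, n = 3), and the difference of the responses, HCT-116 minus HT-29, was -2.36 (SE 0.09, adjusted p = 9.05e-17, edgeR). In DLD-1 it was at 7.78 ± 0.456 and 6.38 ± 0.347 TPM (SD, n = 3). Under 5-FU the HCT-116 level was thus above that of both other lines, and under uracil too.

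Other lists moved more in DLD-1 or HT-29. Of the ATF4 list, 19 members fell in DLD-1 and 9 in HT-29, where 1.37% and 3.3% of all genes tested fell. A higher response in HCT-116 was found in 27 and 17 of 38 members, against 13.8% and 16.7% of all genes. A lower one was found in 4 and 11, against 14.2% and 21.3%. The median differences were 0.60 and 0.12, so against HT-29 the list was divided. DDIT4, an inhibitor of mTOR signalling, fell in both lines, at log2 fold changes of -4.06 in DLD-1 and -1.63 in HT-29. The interaction term of DDIT4 was 3.68 (SE 0.10) against DLD-1 and 1.18 (SE 0.10) against HT-29. In HT-29, 28 interferon-stimulated genes rose with a median of 1.47, where 8.86% of all genes tested rose. A lower response in HCT-116 than in HT-29 was found in 34 of 41 members, against 21.3% of all genes. Ribosomal protein genes had a median of -0.80 in HT-29, and 75 of 79 had a higher response in HCT-116 (16.7% of all genes did). MYC had values of -0.64 in DLD-1 and -1.40 in HT-29, against 0.50 in HCT-116, differences of 1.16 (SE 0.07) and 1.86 (SE 0.07).

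KRTAP2-3, the leading rise, also rose elsewhere, with values of 1.97 in DLD-1 and 3.62 in HT-29 on the log2 scale. In HT-29 it was hardly expressed, at 0.0285 TPM under uracil and 0.514 TPM under 5-FU, against 2.57 and 10.75 TPM in DLD-1. Its difference from HT-29, -0.23 (SE 0.51), did not pass the test (adjusted p = 0.791, edgeR), while that from DLD-1 did (1.502, SE 0.13). PIR fell in all 3 lines, with -2.25 in DLD-1 and -2.36 in HT-29. CPA4 had a log2 fold change of 3.04 in DLD-1, where the difference of 0.17 (SE 0.12) did not pass. A p that misses the threshold does not show that the lines respond alike.

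Resistant HCT-116 cells, given the same 24 h of 5-FU, showed 0 changed genes of 22975 with edgeR, and 1878 genes had an unadjusted p under 0.05. DESeq2 called 1 gene, and 2 at the adjusted p alone. The interaction of treatment with resistance was past an adjusted p of 0.01 in 6814 genes (29.7%). All 77 G2/M genes had a lower response in sensitive cells (18.3% of all genes did), and 41 of 50 p53 targets a higher one (11.4% of all genes). CDKN1A in resistant cells was at 162 ± 3.80 TPM under uracil and 156 ± 4.33 TPM under 5-FU, and TYMS was at 364 ± 4.84 and 353 ± 7.67 TPM (SD, n = 3). Sensitive HCT-116 cells irradiated after 5-FU, compared with the same uracil libraries, had 1030 genes higher (4.48%) and 895 lower (3.9%), 8.38% in all. In that comparison 75 G2/M genes were lower and 16 p53 targets higher, and CCNB1 and CDKN1A had log2 fold changes of -2.59 and 1.75.

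The libraries matched their labels as epithelial cells. Of 10 epithelial markers, 9 were at 5 TPM or more in each of the 6 libraries, and none changed. Of 12 markers of leukocytes, endothelium, fibroblasts and hepatocytes, 7 had enough counts to test and 2 or 3 were at 1 TPM or more in each library, led by COL1A1 and CD68, with sums of 30.2, 34.0 and 31.8 TPM under uracil and 41.6, 37.1 and 38.5 TPM under 5-FU, and none changed. Uracil replicate 1 stood apart in 5.8S ribosomal RNA, at 1117 TPM against 305 to 469.9 TPM in the other 5 libraries, and in the non-coding RNA RMRP. Without that library 869 genes were higher and 743 lower. The part of these library differences in the results was not tested.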

How the data were processed

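Cells of each group were harvested in triplicate, and polyadenylated RNA was sequenced in pairs of reads with a directional kit. Per the submitters' processing notes, the authors used bcl2fastq, FastQC 0.11.8, Trimmomatic 0.36 and kallisto 0.44.0 with GRCh38.p13. The authors deposited estimated counts and TPM that kallisto assigned to transcripts and summed per gene. Of the estimated counts of the 6 libraries, 60.6% were whole numbers, and all were rounded for testing. kallisto divides reads shared by near copies, so values of paralogues and pseudogenes are estimates, and whether strand was used in counting is not given in the sources used here.

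The 18 HCT-116 libraries (6 groups of 3) were fitted together with edgeR 4.0.16 (R 4.3.3): filterByExpr, TMM scaling, the quasi-likelihood test and Benjamini-Hochberg adjustment over all genes tested. DLD-1 and HT-29 were fitted per line, and differences between lines in 1 fit of 18 libraries. DESeq2 1.42.0 was an alternative, as were library-size scaling, no filter on low counts, counts rebuilt from TPM, a replicate block, the 6 libraries alone and leaving out each library. Exact permutation tests of 3 against 3 libraries cannot give a p below 0.1. The fitting code was tested on simulated data. Tables and plots were made with Python 3.11.15, pandas 2.3.3, scipy 1.17.1 and matplotlib 3.10.9. Gene positions and transcript names come from GENCODE 44 and promoters from RefSeq on GRCh38.p14. Depths of 50940525 to 78905042 counts limit genes under about 1 TPM most.

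The comparison and its gene lists were chosen with earlier results of these data known. Genes were named by rule: the 10 largest changes in each direction among genes of at least 5 TPM in a group without overlap, up to 6 changed (12 for the p53 and G2/M lists) and 2 abundant unchanged members per list, a fixed set of 18 genes of the 5-FU response, the 6 largest differences from each other line in each direction, and the 4 genes whose promoters are printed. Named outside the rule, after their values were seen, were BAX, BBC3, BTG2, CCND1, CCNE1, CCNE2, DDB2, DUT, FAS, FOXM1, GADD45A, HIST1H1C, HIST1H2BK, KIF18A, KNSTRN, KRT7, KRTAP3-1, MYBL2, SLBP, TNFRSF10D, TYMP and XPC. Some genes of the lists are counted but not reported singly here.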

Additional observations from a re-analysis of the deposited data

Results flagged for a closer look

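The response to 5-FU differed between sensitive HCT-116 and DLD-1 in 6855 genes, between HCT-116 and HT-29 in 9296 and between sensitive and resistant HCT-116 in 6814, each by an interaction term in edgeR's quasi-likelihood test with an adjusted p no higher than 0.01.

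In 15 of the named genes the change was called in opposite directions in 2 lines and the difference itself passed the test. Some genes were named because their difference between lines was large, so this count is shaped by that choice. On the log2 scale, HCT-116 minus HT-29 was 3.65 for FCGBP, a mucin-like secreted protein, 3.46 for the histone gene HIST2H2BE, 3.17 for DEPTOR, an inhibitor of mTOR, 2.63 for AIFM3 and 2.55 for AKR1B10, which rose in HCT-116 and fell in HT-29. It was -5.41 for SCARA3, -5.30 for NGFR, the low-affinity neurotrophin receptor, -4.37 for PALM3, -3.79 for LHX2, -3.77 for NXPH4, -3.49 for OAS3, -2.87 for BMF, -2.72 for CA2 and -2.72 for IRF7, which fell in HCT-116 and rose in HT-29. NUPR1 rose in HCT-116 and fell in DLD-1, a difference of 2.73. The calls of FCGBP and IRF7 in HCT-116 were lost in some of the alternatives. In HT-29, FCGBP, DEPTOR and LHX2 had means under 1 TPM in both groups, and CA2 went from 0.637 to 1.83 TPM. Of 1782 changed HCT-116 genes tested in HT-29, 233 were higher and 55 lower in both lines. Opposite calls numbered 18 among genes higher in HCT-116 and 62 among genes lower there. They were thus fewer than the shared calls for the higher genes only, and slightly more for the lower genes. For DLD-1, of 1547 such genes, 126 were higher and 39 lower in both, and 4 and 6 had opposite calls.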

How the results depend on the processing

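Changed genes numbered 1100 higher and 771 lower. With a log2 threshold of 2 there were 168 and 86, and at the adjusted p alone 4045 and 5597. The p53 targets called higher, 14 of 50, became 1 at the larger fold and 43 at the adjusted p alone, and the G2/M genes called lower, 73 of 77, became 20 at the larger fold. Leaving out each HCT-116 library gave 869 to 1146 genes higher, 743 to 798 lower, 11 to 15 p53 targets, 73 to 75 G2/M genes, and 6175 to 6656, 8697 to 9073 and 5971 to 6664 genes whose response differed from that of DLD-1, HT-29 and resistant HCT-116. DESeq2 called 992 higher and 728 lower. Library-size scaling called 1365 and 634 and moved the median of all genes from 0.03 to 0.11 on the log2 scale. With a replicate block the counts were 1075 and 768, and 1808 of the changed genes were shared. Replicate numbers did not pair the samples, with correlations of deviations of -0.033, -0.0818 and 0.0308 for the same numbers, and the blocked fit has no bearing beyond its counts.

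Some uncalled values near 0 changed sign. With library-size scaling the log2 fold changes became 0.038 for CD68, 0.072 for CYCS, 0.019 for MPHOSPH6, 0.027 for RPL41, 0.026 for SNORD104, 0.080 for UMPS and 0.014 for ZNF28. With counts rebuilt from TPM they became -0.17 for SNORD99 and 0.077 for ZNF28, and UMPS was at 0.0077 in the 6 libraries alone and 0.00041 without a filter. With libraries left out in turn, CD68 ranged from -0.15 to 0.017, CYCS from -0.047 to 0.0027, SNORD99 from -0.12 to 0.10 and TXN from -0.0087 to 0.063. The cause was not tested. Genes under about 1 TPM carry the largest errors.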

Other observations

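Summed over GENCODE transcript types, retained-intron transcripts took 3.97, 4.55 and 4.19% of estimated counts under uracil and 5.67, 5.44 and 5.54% under 5-FU. The treated libraries lay above the controls, and an exact two-sided permutation test gave p = 0.1, the smallest that 3 against 3 libraries can give. Outside transcripts of mitochondrial DNA, the retained-intron share was 4.38% ± 0.324 under uracil and 5.92% ± 0.121 under 5-FU (SD, n = 3). Transcripts of mitochondrial DNA took 3.35% ± 0.560 and 6.33% ± 0.0657, with uracil replicate 2 the highest control, and protein-coding transcripts 85.8, 84.2 and 85.5% and 80.0, 80.3 and 80.3%. Shares of a total move together, so these are not separate results. Whether the retained-intron share differs by more than read assignment among overlapping transcripts was not tested.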
